A study of Caenorhabditis elegans with 2 samples.

Results

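Protein synthesis needs initiation factors (eIF), which bring the ribosome and the initiator transfer RNA to the start codon, and elongation factors (eEF), which deliver charged transfer RNAs and move the ribosome along the message. It also needs aminoacyl-tRNA synthetases, which join each amino acid to its transfer RNA. Lower translation extends life in Caenorhabditis elegans, as does lower insulin-like signalling, which acts through the FOXO transcription factor DAF-16. The genes described here were taken by a rule on gene names, picked with earlier results of these data known. They are the 70 protein-coding genes, of 19973 on the nuclear chromosomes, whose symbol in the Ensembl annotation starts with eef-, eif-, ife-, iff- or ifg-, or is 1 letter followed by ars-1 or ars-2. They comprise 33 initiation factors, 6 elongation factors and 31 synthetases. Of the synthetases, 20 symbols end in 1 and 11 end in 2. In human gene names that digit separates cytosolic from mitochondrial enzymes, but here it was used only as a label. The genes eif-4A3, which encodes a helicase of the exon junction complex, and iff-1 and iff-2, which encode eIF5A, are counted with the initiation factors because of their names.

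Chromatin immunoprecipitation with an antibody to GFP was followed by sequencing in 2 biological replicates, which form the single group. The worms were of strain ZM8745, hermaphrodites at the L4 stage, harvested 54 hours after they were synchronized. Their own daf-16 gene was disrupted by the allele mu86, they carried daf-2(e1370), a mutation in the insulin receptor gene, and the transgene hpSi15 expressed DAF-16a joined to GFP under the ges-1 promoter, which is active in the intestine. The strain entry places GFP ahead of DAF-16a and a note in the same labels places a GFP-FLAG tag at its C-terminus. Whole animals were processed, and no group without the transgene was analysed here, so nothing could be compared between conditions. Whether the labelled tissue was the source of the signal could not be checked with marker genes, because peak lists hold no expression values.

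The authors deposited an optimal set of 1489 peaks thresholded on replicate reproducibility, a pooled list of 30000 entries made from both replicates, and lists of 28175 and 22676 entries for replicates 1 and 2. By their names the pooled and replicate lists hold background as well as peaks. Each entry carries a signal, whose scale the sources used here do not give, so signals are compared only within a list, mainly as ranks with 1 the highest. The lists hold no read counts and the depth is unknown. The 1489 optimal entries were the 1489 pooled entries with the highest signal, which ended at 84.3. A gene is called bound below when the summit of an optimal entry fell in its promoter window, which runs from 1000 bp ahead of a transcript start to 500 bp past it. The word says nothing about regulation.

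Of the 70 genes, 9 were bound, which is 12.9% (exact 95% interval 6.05% to 23.0%). Over all 19973 protein-coding genes the share was 4.19%, or 836 genes. They were 4 of 6 elongation factors (eef-1G, eef-2, eef-1A.2 and eef-1A.1), 3 of 33 initiation factors (iff-2, eif-3.C and eif-2Bgamma) and 2 of 31 synthetases (ears-2 and aars-1). The intervals of these shares are wide: 22.3% to 95.7% for elongation factors and 1.92% to 24.3% for initiation factors. Synthetases gave 1 bound gene of 20 with a symbol ending in 1 and 1 of 11 with a symbol ending in 2. Among related genes, 7 of 70 mitochondrial and 16 of 78 cytosolic ribosomal protein genes were bound. No test between sets of genes was made, because the genes were picked with earlier results of these data known.

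The sequences under 5 of the peaks are shown because they carry the best-ranked synthetase and initiation factor peaks, both eEF1A genes and the weakest bound gene. Each is the part of the summit and the 50 bp on each side of it that lies outside annotated exons, read 5′ to 3′ on the strand of the named gene from the RefSeq copy of WBcel235, the assembly that ce11 denotes. Capitals mark the 11 bases centred on the summit. The stretches lie at chrIV:390469-390536 for ears-2, chrII:8561395-8561495 for iff-2, chrX:7823283-7823383 for eef-1A.2, chrIII:6972025-6972125 for eef-1A.1 and chrII:11464619-11464719 for aars-1. The eef-1A.2 gene is on the plus strand and the others are on the minus strand.
ears-2: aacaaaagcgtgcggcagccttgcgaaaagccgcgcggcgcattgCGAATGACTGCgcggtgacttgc
iff-2: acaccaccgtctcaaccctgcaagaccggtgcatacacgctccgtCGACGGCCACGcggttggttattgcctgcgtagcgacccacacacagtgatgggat
eef-1A.2: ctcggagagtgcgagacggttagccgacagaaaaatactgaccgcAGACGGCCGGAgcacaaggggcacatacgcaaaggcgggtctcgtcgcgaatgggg
eef-1A.1: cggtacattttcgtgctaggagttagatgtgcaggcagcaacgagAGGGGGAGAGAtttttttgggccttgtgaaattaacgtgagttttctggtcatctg
aars-1: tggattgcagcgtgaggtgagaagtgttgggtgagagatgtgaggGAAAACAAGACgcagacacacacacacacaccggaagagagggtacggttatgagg

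Elongation factors had the highest bound share of the 4 roles, 4 of 6, where 4.19% of all protein-coding genes were bound. The count was 2 of 6 with a window of 250 bp to each side or in the 744 optimal peaks of highest signal, and 3 by the nearest start. The share of all protein-coding genes in these settings was 1.89%, 1.91% and 3.37%. The gene eef-1G, on chromosome V, encodes the gamma subunit of the eEF1B complex, which recharges eEF1A with GTP. Its peak, from 10965510 to 10965929, had an optimal signal of 141.6 at rank 518, and its summit lay 1 bp past the transcript start, in a UTR exon. Its signals were 73.6 in replicate 1 and 64.0 in replicate 2, at ranks 631 and 568. The gene eef-2, on chromosome I, encodes the translocase that moves the ribosome by a codon. Its peak, from 9163329 to 9163748, had a signal of 120.4 at rank 720, with its summit 8 bp past the nearest transcript start. The replicate signals were 59.1 and 64.0 at ranks 1051 and 569, both within the 1489 highest entries of their lists.

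The eEF1A proteins carry aminoacyl-tRNA to the ribosome, and C. elegans has a pair of genes for them, both bound. The eef-1A.2 peak, on chromosome X from 7823123 to 7823542, had a signal of 112.0 at rank 858, and replicate signals of 63.7 and 56.1 at ranks 883 and 761. The eef-1A.1 gene, formerly eft-3, is known to worm geneticists for a promoter that drives transgenes in most tissues. Its peak, on chromosome III from 6971865 to 6972284, had a signal of 97.2 at rank 1159, and replicate signals of 61.1 and 34.6 at ranks 963 and 2253. In replicate 2 it thus fell below the 1489 highest entries. All 33 of the 36 bp pieces sampled every 12 bp along each of the eEF1A entries occurred once in the genome.

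The remaining elongation factors were the eEF1B subunit genes eef-1B.1 and eef-1B.2. In the pooled list eef-1B.1 had an entry at rank 1763 with a signal of 76.7, just under the optimal limit, and replicate ranks of 2657 and 1026. The replicate 1 entry that overlaps the pooled one was at rank 3501, since another entry in the window was higher in that replicate. The gene eef-1B.2 had no pooled or replicate 1 entry, and 1 entry at rank 5425 of replicate 2. Of all 6 elongation factors, 5 had an entry within the 2978 highest pooled entries, which is double the size of the optimal set, against 8.62% of all protein-coding genes.

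**Figure D1:**
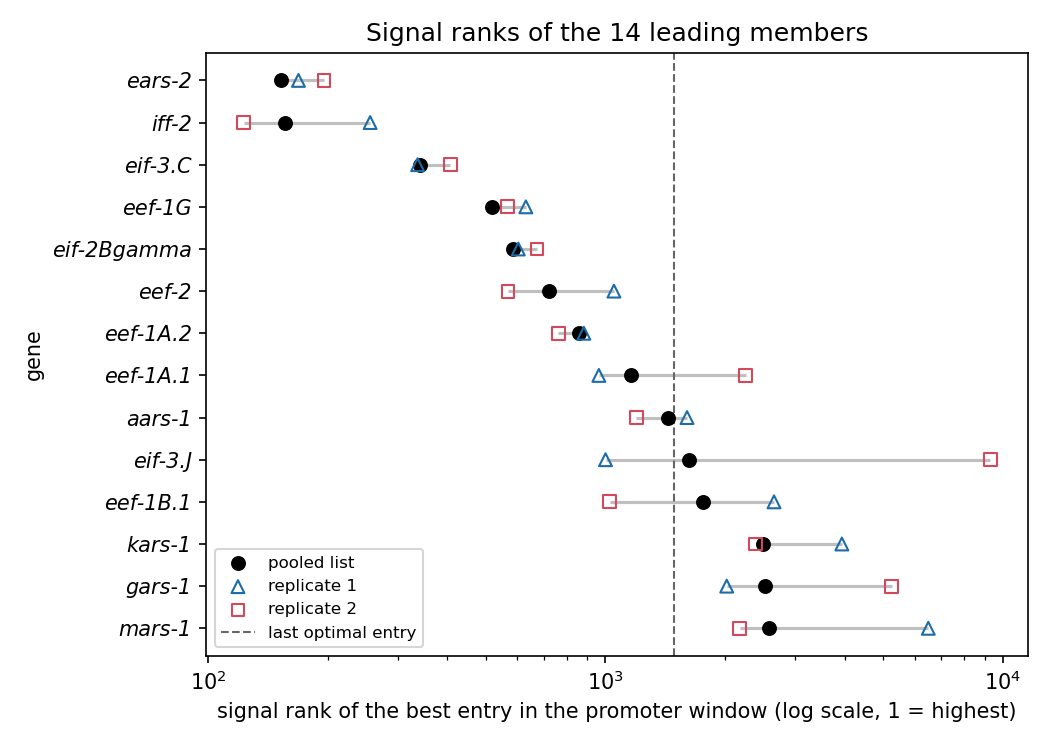
Signal rank of the best entry in the promoter window for the 14 genes with the best pooled ranks, in the pooled list and in each replicate list (log axis, 1 is the highest, best at the left). The dashed line marks rank 1489, the last optimal entry. The replicate points are farthest apart for eif-3.J, at 1001 and 9294.

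Among initiation factors the highest signal was at iff-2, which encodes an eIF5A of the soma, a protein that also acts in elongation and termination. The iff-2 peak, on chromosome II from 8561235 to 8561654, had a signal of 210.0 at rank 156, and signals of 104.4 and 103.2 in replicates 1 and 2, at ranks 256 and 123. Its summit was 78 bp upstream of a transcript start. The other eIF5A gene, iff-1, which acts in the germline, had a pooled entry at rank 8856 and replicate ranks of 14612 and 3184, below iff-2 in every list. The pooled summit was 82 bp past a transcript start of iff-1, and no replicate 1 entry overlapped that pooled entry. The replicate 1 rank is that of another entry, with its summit 450 bp past a start.

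The eIF3 complex holds the small ribosomal subunit ready for the message, and 1 of its 11 listed subunit genes was bound. Of all protein-coding genes 4.19% were bound, and a count from 11 genes is too small to set against that share. The bound subunit gene was eif-3.C, on chromosome I, with a peak from 9979831 to 9979991 and a signal of 168.4 at rank 342. Its replicate signals were 95.01 and 73.2 at ranks 337 and 407. The next were eif-3.J at pooled rank 1621 and eif-3.I at 2808. From there the subunits ran through eif-3.G at 3308, eif-3.D at 3891, eif-3.B at 6474, eif-3.H at 12852 and eif-3.K at 14657 to eif-3.E at 29684 and eif-3.F at 29805, and eif-3.L had no entry in any list. The genes of the complex were thus spread over the whole pooled list. With 2000 bp upstream, or by any overlapping base, eif-3.G had an optimal peak as well. In those settings 5.67% and 4.68% of all protein-coding genes had one. The eif-3.J entry had a signal of 80.4, and was the highest among the unbound genes described here. Its summit lay 944 bp upstream, in a UTR exon of slc-25A46, and replicate 2 ranked it at 9294.

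eIF2B reloads eIF2 with GTP and is the target of the integrated stress response. Of its 5 subunit genes eif-2Bgamma was bound, with a signal of 133.5 at rank 587 and replicate signals of 74.9 and 59.3 at ranks 604 and 673. This peak, on chromosome II from 6968137 to 6968556, had its summit 699 bp upstream, in a coding exon of C15F1.5 and 47 bp from sup-39, a small nuclear RNA gene. Of the 36 bp pieces sampled along it, 25 of 33 occurred once in the genome, against every sampled piece at the other bound genes. The other subunit genes were at pooled ranks 3229 (eif-2Bdelta), 28204 (eif-2Bepsilon) and 29733 (eif-2Bbeta), and eif-2Balpha had no entry. The 3 eIF2 genes were unbound, at ranks 4464 (eif-2gamma), 11447 (eif-2alpha) and 21767 (eif-2beta). Counts from 5 and 3 genes are too small to set against the 4.19% of all protein-coding genes that were bound.

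None of the 6 genes of the cap-binding side of initiation was bound, a count too small to set against the 4.19% of all protein-coding genes. The 5 eIF4E genes encode proteins that hold the cap of the message, and loss of ife-2 lengthens life. Pooled ranks were 8858 for ife-2, 9436 for ife-1 and 13662 for ife-3, and ife-4 and ife-5 had no pooled entry. The replicates listed ife-4 at 8260 and 14250, and ife-5 in neither. The replicates placed ife-2 at 25223 and 4307, and ife-3 at 5450 in replicate 1. In replicate 2 no ife-3 summit was in the window, but an entry at rank 1252 with a signal of 44.8 overlapped the pooled one, its summit 321 bp away. With 2000 bp upstream the pooled rank of ife-3 was 2080. The eIF4G gene ifg-1, whose product links eIF4E to eIF3, was at pooled rank 8808 with its summit 937 bp upstream, and at 13257 and 13563 in the replicates. All of these pooled signals were at most 39.1, below the 84.3 at which the optimal set ended.

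Synthetase genes gave the highest and the lowest of the bound signals. The ears-2 gene, named for a glutamyl-tRNA synthetase, had a signal of 211.6 at rank 153, and signals of 119 and 91.9 in replicates 1 and 2, at ranks 169 and 196. Its peak, on chromosome IV from 390397 to 390579, was 183 bp wide, and the summit lay 18 bp upstream of the start. The aars-1 gene, named for an alanyl-tRNA synthetase, had a signal of 85.8 at rank 1440, just inside the optimal limit, with its peak on chromosome II from 11464459 to 11464878. Replicate 1 placed it at 1605 with a signal of 48.5, outside its 1489 highest entries, and replicate 2 at 1197 with a signal of 45.9. The other ears and aars genes were far lower or absent, with ears-1 at pooled rank 22704 and aars-2 in no list.

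Below the limit came a band of synthetases, kars-1 (lysyl) at pooled rank 2488, gars-1 (glycyl) at 2528, mars-1 (methionyl) at 2574 and iars-2 (isoleucyl) at 2794. Together with the bound pair these make 6 of 31 synthetases within the 2978 highest pooled entries, a depth at which 8.62% of all protein-coding genes had one. The kars-1 summit was 974 bp upstream, and with 500 bp upstream its rank was 4222, outside that depth. Replicates disagreed on their order, with gars-1 at 2020 and 5250 and mars-1 at 6494 and 2176. The leucyl-tRNA synthetase gene lars-1, whose product also senses leucine in mammals and yeast, was at pooled rank 10486, and the arginyl-tRNA synthetase gene rars-1 at 22810. No pooled entry lay in the windows of 6 of the 31 synthetases. The other 25 had one, where 45.5% of all protein-coding genes did.

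Within the 2978 highest pooled entries 16 of 70 had one, or 22.9%, against 8.62% of all protein-coding genes. Within 5000 it was 21, or 30.0% against 13.6%, and within 10000 it was 36, or 51.4% against 22.5%. In the whole list 56 had an entry, 80.0% against 45.5%. The promoter windows of these genes covered a median of 1501 bp and the same median held for all protein-coding genes. By role the median ran from 1501 bp for initiation factors to 1734 bp for synthetases with a symbol ending in 2. In no list was there an entry for 8 genes, namely aars-2, eif-2Balpha, eif-2D, eif-3.L, eif-6, iars-1, ife-5 and sars-2, or 11.4% against 41.4% of all protein-coding genes. Expression level was not measured here, and its part in these shares was not tested.

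**Figure D2:**
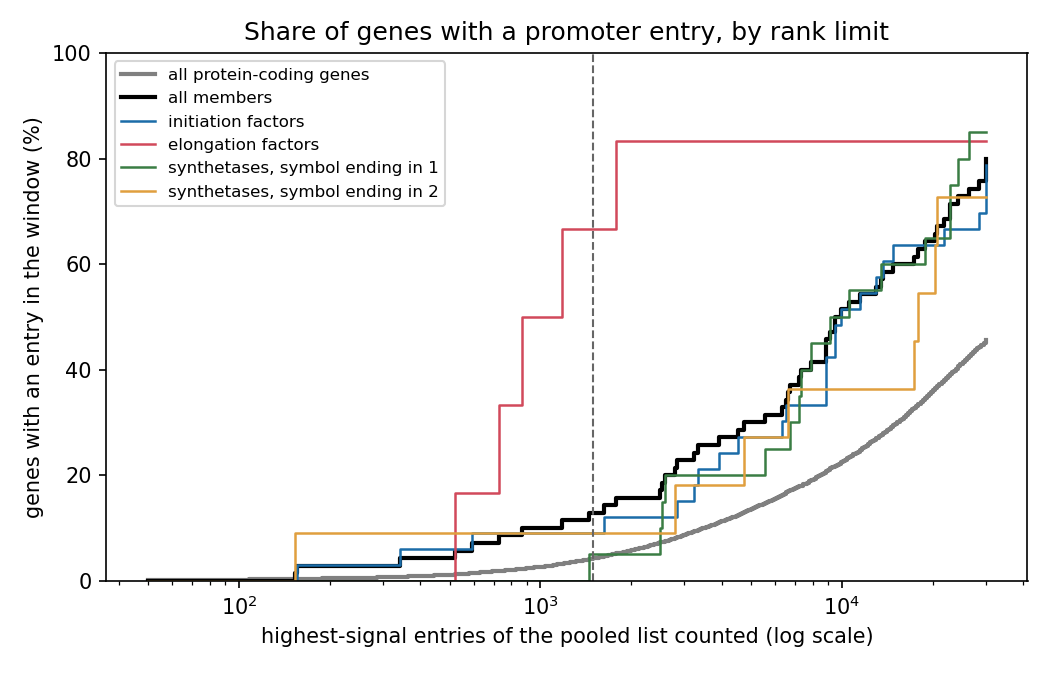
Share of genes (%) with an entry in the promoter window as more of the highest-signal pooled entries are counted (log axis), for all protein-coding genes, all 70 genes described here and each of the 4 roles. The dashed line is the size of the optimal set, 1489, where the elongation factors stand at 66.7% and all protein-coding genes at 4.19%.

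The replicates were set side by side for the same genes. Within the 1489 highest entries of replicate 1, 9 of the 70 had an entry, against 4.11% of all protein-coding genes, and within those of replicate 2 also 9, against 4.19%. Of the 9 bound genes 7 were in both, eef-1A.1 was missing from replicate 2 and aars-1 from replicate 1. In their places came eif-3.J in replicate 1 and eef-1B.1 in replicate 2. Every one of the 9 optimal peaks overlapped an entry in each replicate, whose summit lay 0 to 46 bp from the optimal summit. The summits of the replicates can lie farther from each other. At eef-1A.2 they were 46 bp (replicate 1) and 28 bp (replicate 2) from the optimal summit, on opposite sides of it. In the whole lists, 51 of the 70 had an entry in replicate 1, against 44.9% of all genes, and 45 in replicate 2, against 39.4%. Across the 38 with an entry in both, the best ranks had a Spearman correlation of 0.74, and across the 5647 protein-coding genes with entries in both it was 0.54. These are descriptions across genes, which share their libraries and in some cases their peaks. Both replicates went into the optimal set, which was thresholded on their reproducibility. High ranks of its genes in each replicate, and overlap of its peaks with entries of each, are thus built in. The share of all optimal peaks with such overlap was not computed.

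**Figure D3:**
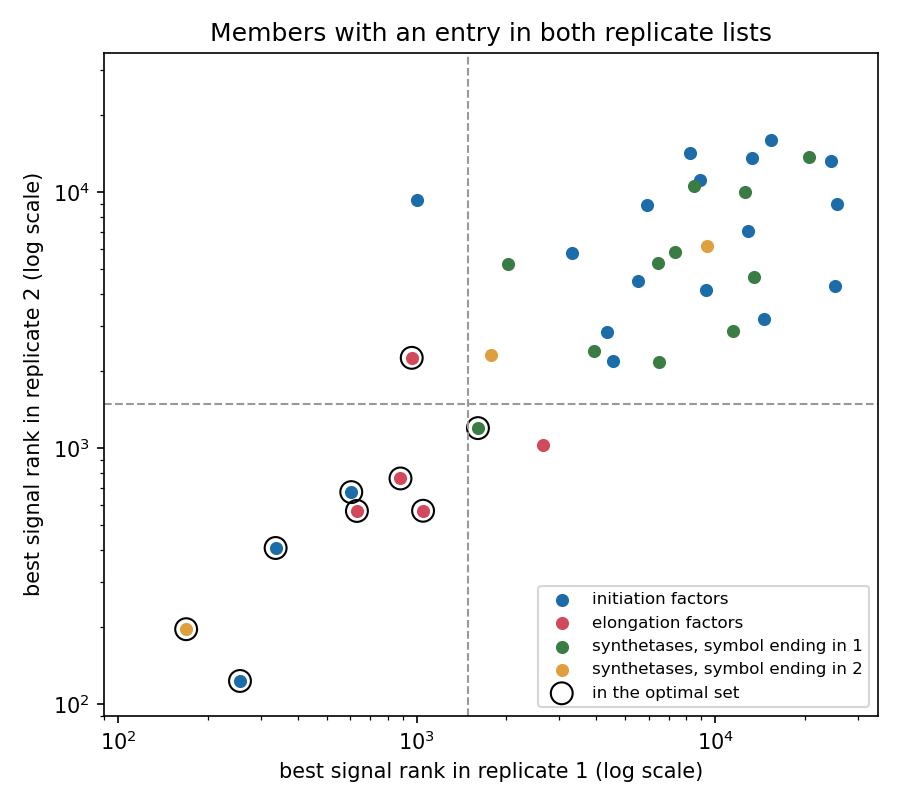
Best signal rank in replicate 1 and replicate 2 (both axes log, 1 is the highest) for the 38 genes with an entry in both lists, coloured by role, with the optimal genes ringed. Dashed lines mark rank 1489 in each list. Of the 9 ringed genes 7 lie inside both lines, and eef-1A.1 and aars-1 lie outside 1 of them.

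The bound peaks sat close to the starts of their genes. The median distance between summit and nearest transcript start was 172 bp for the 9 genes and 291 bp for all 836 bound genes. Summits of ears-2, iff-2, eef-1G and eef-2 were within 100 bp, 4 of 9 against 15.7% of all bound genes. The peak at eif-2Bgamma was the only one of the 9 within 100 bp of a transfer, small nucleolar or small nuclear RNA gene. That is 11.1% of the 9, and among all bound genes 18.4% had such a peak. In all, 6 of the 9 summits were intergenic, against 72.8% for all bound genes.

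Several of these peaks lay at or between the starts of genes that point away from each other. For 6 of the 9 the same summit was also in the promoter window of a neighbour on the opposite strand, which is 66.7%, and 39.1% of all bound genes shared their peak with another protein-coding gene. The ears-2 summit was 74 bp upstream of uncp-18, and the eef-1G summit 181 bp upstream of ctf-4. The eef-2 summit was 273 bp upstream of clsp-1, the aars-1 summit 225 bp upstream of rga-1 and the iff-2 summit 857 bp upstream of F54C9.14. In 5 of these 6 pairs the translation gene had the nearer start, a small count with no share over all bound genes to set beside it. The exception was eef-1A.1, whose summit was 363 bp from its own start and 178 bp from that of rfc-4, a gene of the clamp loader of DNA replication. A peak list cannot say which gene of a pair a peak belongs to.

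**Figure D4:**
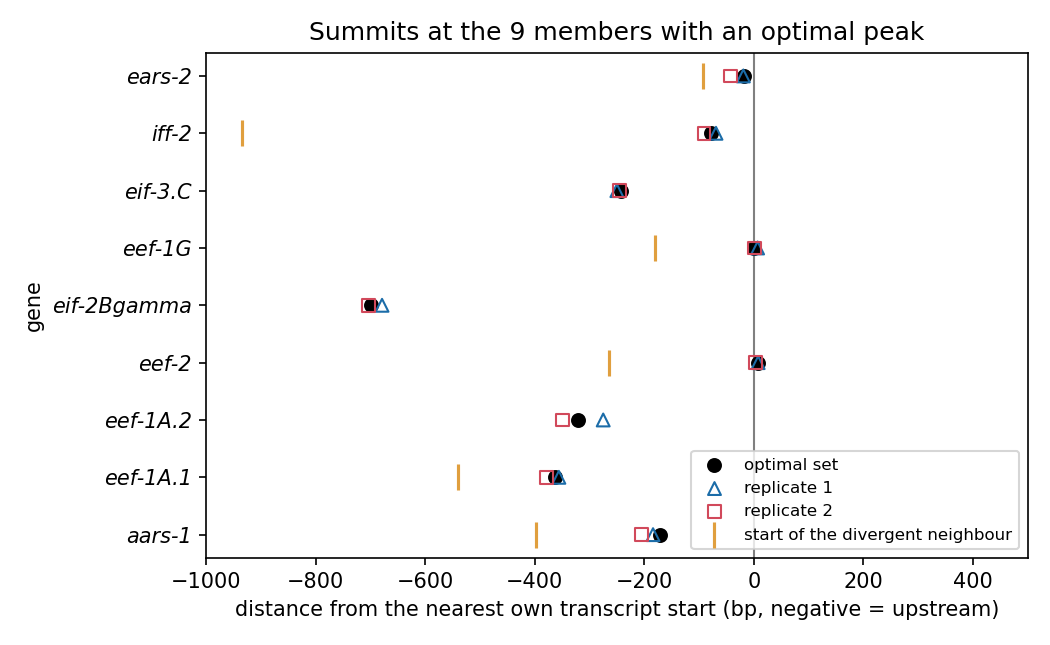
Position of the summit at the 9 bound genes in bp from the nearest own transcript start (negative is upstream), in the optimal set and in each replicate. Bars mark the start of the neighbour on the opposite strand where the 2 genes share the summit, as at ears-2 and eef-1A.1. The optimal summits run from 699 bp upstream at eif-2Bgamma to 8 bp downstream at eef-2.

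The windows of 50 bp to each side of the summits were searched on both strands for the sequences linked to DAF-16. The DAF-16 associated element TGATAAG was at 0 of the 9 bound summits, where 8.82% of the 703 optimal promoter summits held it and 3.65% of windows of the same length centred 100 bp upstream of all 29314 transcript starts did. The DAF-16 binding element, TGTTTAC or TATTTAC, was also at 0 of 9, against 5.69% and 4.34%. No test was made of these counts, which rest on 9 windows. With 100 bp to each side 1 of the 9 held the binding element, but no share of other summits or windows was computed at that width. At the best pooled summits of the 56 genes with an entry, TGATAAG was at 0 and the binding element at 3, namely ife-3 with TGTTTAC and eif-1 and sars-1 with TATTTAC. Of the 11919 pooled promoter summits, 3.62% held TGATAAG and 3.73% the binding element.

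A pair of 7-base sequences that were frequent at optimal peaks in an earlier search of these same data, GACGCAG and GAGAGAG, were also looked for. GACGCAG was at 1 of the 9 bound summits, that of aars-1, where it begins 3 bp past the summit in the sequence shown above. It was at 7.54% of all optimal promoter summits and 1.79% of the windows upstream of all starts. GAGAGAG was at 0 of 9, against 7.25% and 3.06%.

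Most bound summits lay in sequence rich in G and C. These bases made up a median of 52.5% of the same windows at the 9 bound genes, from 37.6% at eif-2Bgamma to 61.4% at eef-1A.2. The median was 46.5% for all 703 optimal promoter summits and 33.7% for the windows upstream of all starts. The iff-2 window had 60.4% and the ears-2 window 59.4%. The iff-2 window is printed above in full, but only 68 bases of the ears-2 window are. At the other 47 genes with a pooled entry the median was 34.7%, with a range from 18.8% to 56.4% that overlaps that of the bound genes. Whether base composition affected how fragments were recovered or sequenced was not tested.

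**Figure D5:**
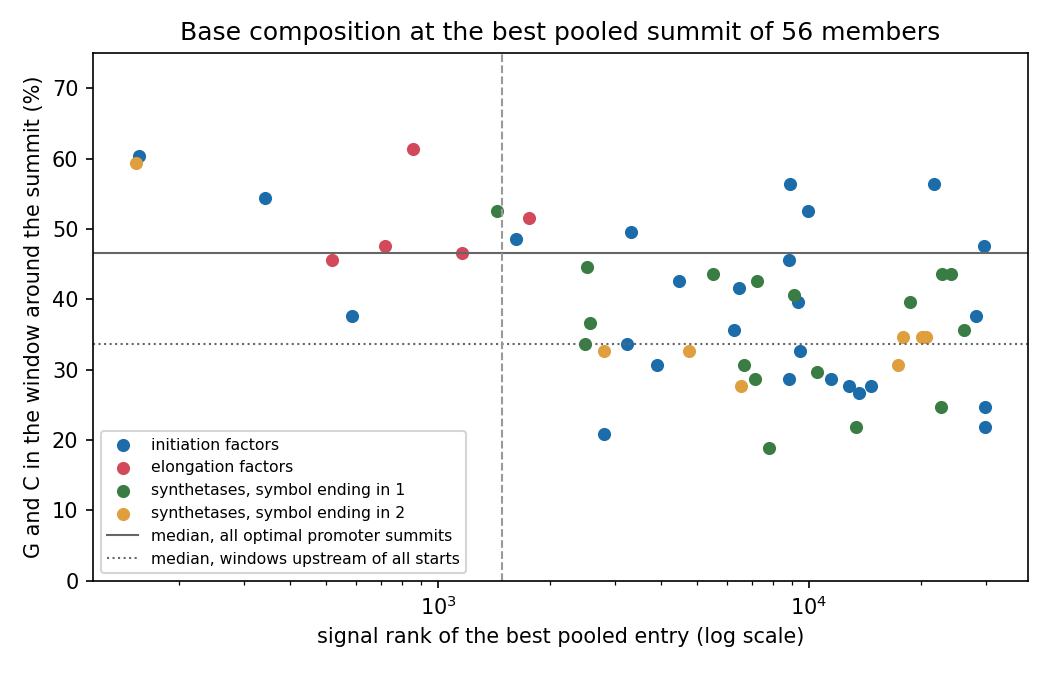
G and C content (%) of the window of 50 bp to each side of the best pooled summit of the 56 genes with an entry, against the signal rank of that entry (log axis), coloured by role. The solid line is the median of all optimal promoter summits, 46.5%, and the dotted line that of windows upstream of all transcript starts, 33.7%. Left of the dashed line, at rank 1489, lie the 9 bound genes, of which eif-2Bgamma is the lowest at 37.6%.

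Other genes of translation and its control, outside the naming rule, were described from a list of 38 symbols, of which 29 matched the annotation. Of these 3 were bound, or 10.3% (exact 95% interval 2.19% to 27.4%), beside the 4.19% of all protein-coding genes. The highest was larp-1, which encodes a La-related RNA-binding protein, with a signal of 295.5 at rank 66 and replicate ranks of 71 and 55. Its summit was 655 bp upstream of the start and also in the window of wip-1. ifet-1, which encodes a partner of eIF4E that represses messages, had a signal of 128.5 at rank 647, with replicate ranks of 572 and 997 and its summit 531 bp upstream, also in the window of the ribosomal protein gene rps-1. By the nearest start, with 500 bp upstream or with 250 bp to each side, neither larp-1 nor ifet-1 was bound. gfm-1, which encodes the mitochondrial elongation factor G, had a signal of 97.8 at rank 1146, with replicate ranks of 854 and 1338 and its summit 110 bp upstream, also in the window of rict-1. It stayed bound in those settings. All 3 were within the 1489 highest entries of each replicate. Within the 2978 highest pooled entries there were 9 of the 29, or 31.0%, against 8.62% of all protein-coding genes. The unbound 6 of those 9 were pab-2, atf-4, clu-1, fars-3, erfa-3 and pek-1. Of them atf-4, which encodes a transcription factor of the integrated stress response, was at rank 1654 and pek-1, which encodes an eIF2 kinase, at 2722.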

How the data were processed

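DAF-16 tagged with GFP was immunoprecipitated and sequenced in 2 biological replicates. Per the file records the authors deposited, each list was made from alignments and a control file, and the irreproducible discovery rate set the optimal peaks. The deposited signal per peak has no stated scale. Aligner and peak caller were not given in the sources used here. Depth is unknown. The ce10 lists were not used.

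Summits (start plus offset) were assigned on ce11 to nuclear protein-coding genes of Ensembl release 115 by 29314 starts of protein-coding transcripts, 1000 bp upstream to 500 bp downstream. Several genes can take 1 summit. Shares have exact (Clopper-Pearson) 95% intervals, which cover counting of genes only. With 1 group and no counts, no test was made. The assignment was tested on simulated peaks. Python 3.11.15, numpy 2.4.6, scipy 1.17.1, pandas 2.3.3 and matplotlib 3.10.9 were used.

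The genes and lists were chosen with earlier results of these data known. Named genes were all bound members, the next 5 by pooled rank, the 3 highest of each replicate, members in no list, the ife, iff and ifg genes, eef-2, both eEF1A genes, lars-1 and rars-1, and bound partner genes. The remaining subunits of eIF2, eIF2B, eIF3 and eEF1B, ears-1, iars-2, the motif carriers, unbound partner genes and neighbours, were named after their values were seen. Alternatives covered the window, the assignment rule, the number of entries, small RNA genes, the width searched for motifs and leaving out either replicate.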

Additional observations from a re-analysis of the deposited data

How the results depend on the processing

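The 9 bound genes became 8 with 500 bp upstream, 10 with 2000 bp upstream, 6 with 250 bp to each side, 8 by the nearest start, 10 by any overlapping base, 6 in the higher-signal 744 peaks, 8 without peaks by small RNA genes, and 16 in the 2978 highest pooled entries. The share of all protein-coding genes was 3.14%, 5.67%, 1.89%, 3.37%, 4.68%, 1.91%, 3.45% and 8.62% in the same order. Without either replicate the count was 9, of which 8 were the same genes, and the share of all genes ran from 4.11% to 4.19%. With starts of all transcripts, chosen after the data were seen, the count was 9. By the nearest start eef-1A.1 was lost to rfc-4. Elongation factors fell to 2 bound with 250 bp to each side and in the higher-signal 744 peaks. In the 2978 highest pooled entries initiation factors had 5, and synthetases with symbols ending in 1 and 2 had 4 and 2. The former had 0 in the higher-signal 744 peaks, and from 0 to 1 with a replicate left out. The 3 bound partner genes became 1 with 500 bp, with 250 bp and by the nearest start, 9 in the 2978 entries, and 4 to 5 with a replicate left out. The binding element went from 0 summits to 1 with 100 bp to each side, a width with no background share, and 3 over all listed genes. Pooled ranks that moved included that of ife-3, from 13662 to 2080 with 2000 bp upstream, and that of ife-1, from 9436 to 21641 with 500 bp upstream. The ife-1 entry at rank 9436 had its summit 725 bp upstream, outside the narrower window. The ife-3 entry at rank 2080 had its summit more than 1000 bp upstream, inside the wider window only. No paired analysis was possible because there is 1 group and no test.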
